A study of Mus musculus with 6 samples.

Results

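The 9 genes described here encode ligands of the interleukin-1 (IL-1) family, the antagonist of their receptor and proteins that carry the signal inside the cell. They are Il1rn, Il1a, Il1b, Il18, Il33, Myd88, Irak2, Irak4 and Tollip, out of 21887 protein-coding genes on chromosomes 1 to 19, X and Y. The genes were chosen by name for their place in the pathway, with earlier results on this list known. Regions were then assigned to them by position: a region counted for a gene when its centre lay inside the gene's span or within 100 kb of it. By that rule 13 of the 6502 regions in the authors' list belonged to the 9 genes.

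The list came from ATAC-seq, an assay in which a transposase cuts and tags accessible chromatin, on basal stem cells sorted from mouse prostate as CD45-, CD31-, Sca-1+ and CD49f+. There were 3 naive libraries, with the labelled genotype WT and the labelled treatment control, and 3 inflamed libraries, with the labelled genotype POET3. POET3 mice express ovalbumin in the prostate, and inflammation followed 7 days after these mice received activated spleen cells of OT-1 mice, whose T cells recognise ovalbumin. The extraction protocol names POET3 mice for the naive prostates too, so the genotype of the naive group is given differently by different labels, and by the genotype label alone strain and inflammation cannot be told apart. The animals' age, and whether animals were pooled, were not given in the sources used here.

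Each entry of the list is a chromosome, a start and an end, with no signal, fold or p-value and nothing per library. Nearly all entries are either 143 or 451 bases wide. The name of the list and the tools in the submitters' processing notes led to its being read as regions that differ between the groups. In which group a region was more open is not stated, the depth is unknown, and the 2 groups were not compared by a test. All statements below therefore concern where listed regions lie. The labelled cell type was not checked against its markers, for want of values per gene.

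IL-1 alpha and IL-1 beta, the products of Il1a and Il1b, bind the IL-1 receptor and start an inflammatory programme in epithelial, stromal and immune cells. The product of Il1rn occupies the same receptor without starting a signal. IL-18 and IL-33 use related receptors of their own. All of these receptors recruit the adaptor MyD88, which assembles the kinases IRAK4 and IRAK2 and leads to activation of NF-kB, and Tollip binds this complex and restrains it.

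Sequences are shown for the 2 member starts over which a listed region lay and for the neighbour start under the region nearest Il1a, with 2 member starts that had none for contrast. Each stretch is a RefSeq promoter window of GRCm38.p6, the assembly that mm10 is built on, and runs 5′ to 3′ from 250 bases before an annotated start to 50 bases from it onward. Capitals mark the bases inside a listed region.
Il1rn, first start, chr2:24336610-24336909, plus strand: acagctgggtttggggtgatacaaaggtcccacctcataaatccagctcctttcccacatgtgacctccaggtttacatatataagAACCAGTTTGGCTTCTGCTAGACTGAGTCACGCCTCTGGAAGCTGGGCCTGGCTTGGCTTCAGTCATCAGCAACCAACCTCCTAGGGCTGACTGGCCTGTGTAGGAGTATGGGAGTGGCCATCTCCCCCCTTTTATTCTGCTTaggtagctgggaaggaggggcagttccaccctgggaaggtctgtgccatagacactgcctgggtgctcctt
Il1rn, second start, chr2:24345041-24345340, plus strand: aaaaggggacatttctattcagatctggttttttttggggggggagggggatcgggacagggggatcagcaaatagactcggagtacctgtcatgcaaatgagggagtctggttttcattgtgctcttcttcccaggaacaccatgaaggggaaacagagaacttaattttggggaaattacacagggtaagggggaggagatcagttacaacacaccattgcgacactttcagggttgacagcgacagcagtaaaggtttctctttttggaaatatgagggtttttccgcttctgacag
Il1b, chr2:129371090-129371389, minus strand: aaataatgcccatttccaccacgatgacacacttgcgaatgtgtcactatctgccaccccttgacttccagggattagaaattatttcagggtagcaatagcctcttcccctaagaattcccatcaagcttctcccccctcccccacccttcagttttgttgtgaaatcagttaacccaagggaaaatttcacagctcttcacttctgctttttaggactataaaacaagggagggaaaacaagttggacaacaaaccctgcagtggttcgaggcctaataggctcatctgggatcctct
Irak4, chr15:94543410-94543709, plus strand: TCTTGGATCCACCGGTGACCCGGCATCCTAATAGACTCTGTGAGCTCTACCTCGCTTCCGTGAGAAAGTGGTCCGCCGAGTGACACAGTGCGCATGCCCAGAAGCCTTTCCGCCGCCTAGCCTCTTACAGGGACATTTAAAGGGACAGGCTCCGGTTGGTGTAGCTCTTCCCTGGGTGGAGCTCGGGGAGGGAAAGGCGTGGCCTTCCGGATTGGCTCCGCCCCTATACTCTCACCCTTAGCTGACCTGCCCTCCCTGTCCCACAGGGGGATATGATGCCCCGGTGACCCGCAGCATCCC
Ckap2l, the neighbour of Il1a, chr2:129297163-129297462, minus strand: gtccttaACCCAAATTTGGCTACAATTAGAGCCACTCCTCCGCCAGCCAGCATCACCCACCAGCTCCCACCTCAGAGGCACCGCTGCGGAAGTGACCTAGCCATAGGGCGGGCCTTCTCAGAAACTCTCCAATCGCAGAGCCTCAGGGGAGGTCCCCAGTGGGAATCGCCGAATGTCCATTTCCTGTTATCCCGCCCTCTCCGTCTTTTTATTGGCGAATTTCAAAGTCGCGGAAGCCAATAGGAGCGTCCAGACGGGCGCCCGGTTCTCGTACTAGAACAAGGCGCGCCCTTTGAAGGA
In Il1rn the capitals run from position -164 to -22, with negative positions counted back from the first start. The second Il1rn window and the Il1b window hold no capitals, the Irak4 window is capital throughout, and 293 of the 300 bases are capital at Ckap2l.

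Listed regions were found at 7 of the 9 genes, or 77.8%. Over all protein-coding genes the same rule found a region at 9343 genes, or 42.7%, and at 42.6% of the 13158 genes whose length lay within the range of the members. The genes with regions were Il1rn and Irak4 with 3 each, Il1b, Il18 and Irak2 with 2 each, and Il1a and Tollip with 1 each. Il33 and Myd88 had none. A region over the start of Ckap2l, the neighbour of Il1a, was shared by Il1a and Il1b, so the 13 regions made 14 placements. Thus 5 of 9 members had 2 or more regions (17.9% of protein-coding genes did) and 2 of 9 had 3 or more (7.47% did). The median was 2 regions per member and 0 per protein-coding gene. With 9 genes, of which Il1a and Il1b lie side by side, these shares are a description of the set and were not tested.

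**Figure D1:**
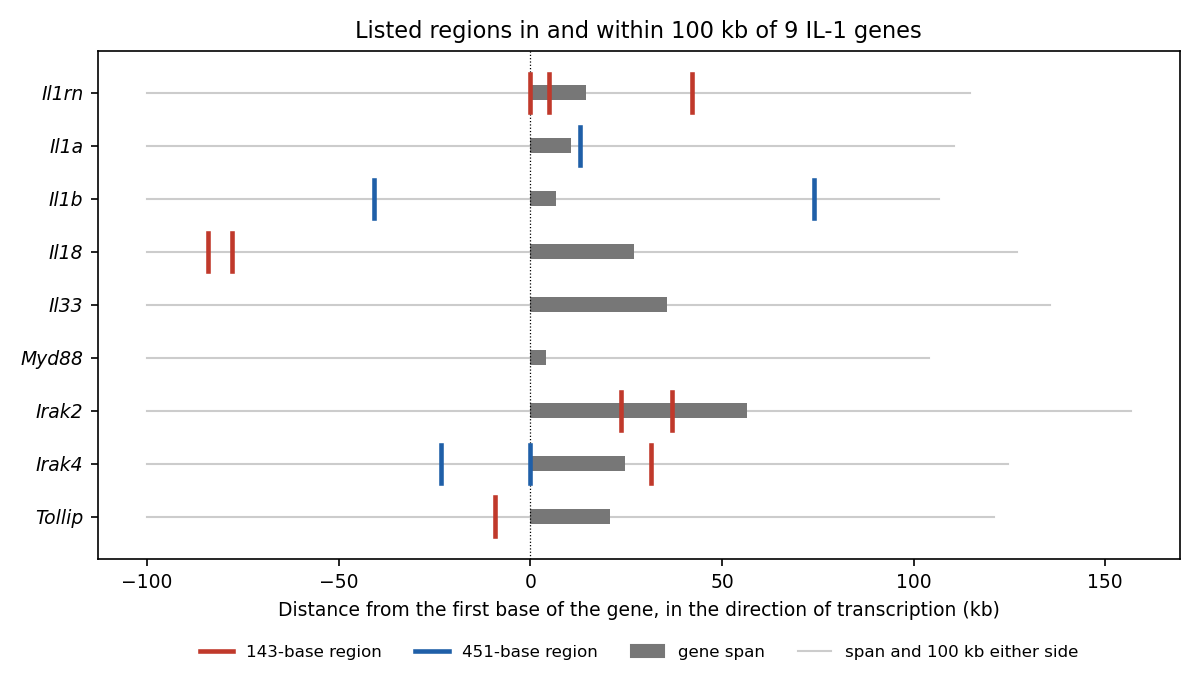
Positions of listed regions (vertical bars, coloured by width) around each of the 9 genes, with distance from the first base of the gene in kb on the x axis, positive in the direction of transcription. Il1rn and Irak4 have a bar at the gene's first base or just before it, both bars of Irak2 lie inside the gene, the bars of Il18 lie far upstream, and the lines of Il33 and Myd88 are empty.

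Il1rn, which encodes the receptor antagonist, had the closest cover of an annotated start among the ligand and antagonist genes. The gene lies on chromosome 2 from 24336860 to 24351491 on the plus strand, and RefSeq gives it 3 starts. It is known to make secreted and intracellular forms of the antagonist from alternative first exons. The first region (24336696 to 24336838, 143 bases) was centred 93 bases before the first start and lay whole inside the promoter window printed above. The next (24341546 to 24341688, 143 bases) lay inside the gene, 4850 bases beyond the first and 3674 bases before the second start. Neither the second nor the third start, at 24345291 and 24345371, had a region over its promoter window. The last (24378939 to 24379081, 143 bases) was 27.5 kb past the gene's end and inside Psd4, which encodes an exchange factor for the small GTPase ARF6. All 3 regions were therefore of the narrower width, and for the first and the next Il1rn was the nearest protein-coding gene. Beyond 100 kb, the next region on the chromosome was 798 kb away.

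A promoter window that shared at least 1 base with a listed region was rare. Of the 17492 protein-coding genes with a window in the RefSeq table, 558 (3.19%) had one. Among the 9 members there were 2, Il1rn and Irak4.

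Il1a and Il1b, the genes of the agonists, lie next to each other on chromosome 2 and had only 451-base regions. Il1a spans 129299609 to 129310186 and Il1b 129364569 to 129371164, both on the minus strand. Neither had a region inside the gene or over its promoter window. The region they shared (129297005 to 129297455) was centred 2.38 kb past the end of Il1a and 67.3 kb past the end of Il1b. Its centre was 18 bases from the start of Ckap2l, which encodes a protein of the mitotic spindle, and Ckap2l was its nearest gene. Il1b had a further region (129411700 to 129412150) centred 40.8 kb upstream, for which it was the nearest protein-coding gene. Among all annotated genes Spcs2-ps, named only after the positions were seen, was nearer to that region, at 32529 bases. The region of Il1a next beyond the limit of 100 kb was 101 kb from the gene.

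Il18, which encodes a cytokine that epithelia store as an inactive precursor, had regions only far upstream. The gene lies on chromosome 9 from 50554700 to 50581841 on the plus strand, in a window that held 10 other protein-coding genes. Its regions (50470566 to 50470708 and 50476766 to 50476908, both of 143 bases) were centred 84.1 and 77.9 kb before the gene and 6200 bases from each other. Among protein-coding genes both were nearest to Plet1, which encodes a surface protein known from epithelial progenitor cells, at 23.9 and 17.7 kb before its start. Among all annotated genes Gm32462, named only after the positions were seen, was nearer to both. The region at 50470566 was centred 1527 bases from Gm32462 and that at 50476766 inside it. Il18 was thus the nearest protein-coding gene of neither.

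Il33, the gene of a cytokine held in the nucleus of barrier cells and released on damage, had no region by the rule. It lies on chromosome 19 from 29925113 to 29960718 on the plus strand, with 2 annotated starts. Its nearest region was 654 kb away, and 13.1% of all protein-coding genes had a nearest region farther off.

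Myd88, the adaptor through which the IL-1, IL-18 and IL-33 receptors signal, had none either. It lies on chromosome 9 from 119335934 to 119340018 on the minus strand and is the shortest of the 9 genes, at 4.08 kb. The nearest region was 524 kb away, and 17.3% of protein-coding genes had one farther off. A distance over 500 kb, which applied to these 2 of the 9 members (22.2%), was found for 18.1% of all protein-coding genes.

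The kinase genes held regions in different positions. Irak2, on chromosome 6 from 113638467 to 113695026 on the plus strand, is the longest of the 9 genes, at 56.6 kb. Its 2 regions (113661926 to 113662068 and 113675350 to 113675492, both of 143 bases) lay inside the gene, 23.5 and 37.0 kb from its start. No region lay over its promoter window, and exons and introns were not told apart because the gene table holds spans only.

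Irak4, the kinase that acts first in the complex, was the only member with regions of both widths. It lies on chromosome 15 from 94543613 to 94568317 on the plus strand. The middle region (94543388 to 94543838, 451 bases) was centred on the first base of the gene and 47 bases before the start used for the promoter window. The same region covered the whole promoter window of Pus7l, a gene of the pseudouridine synthase family that is read in the opposite direction. The 2 starts lie 153 bases from each other, so the region cannot be given to either gene alone. A further 451-base region (94520140 to 94520590) lay 23.2 kb upstream of Irak4 and 2275 bases past the end of Pus7l. A 143-base region (94574967 to 94575109) lay 6.72 kb downstream, nearer to Twf1, which encodes the actin-binding protein twinfilin, at 2.91 kb.

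Tollip, the gene of the adaptor that restrains the complex, had a single region. The gene lies on chromosome 7 from 141881580 to 141902461 on the minus strand. Its region (141911549 to 141911691, 143 bases) was centred 9.16 kb upstream of the start, and Tollip was the nearest gene. The next region was 691 kb away.

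The members differed widely in the distance to their nearest region. A region lay inside the span of Il1rn, Irak2 and Irak4, or 3 of 9 (33.3%, against 10.2% of protein-coding genes). That of Irak4 counted as inside only because its centre was the gene's first base. Regions lay within 10 kb of Il1a and Tollip as well, making 5 of 9 (55.6%, against 15.2%). Il1b and Il18 followed at 40.8 and 77.9 kb, and Myd88 and Il33 were last. The median distance from a member to its nearest region was 9.16 kb, and over all protein-coding genes it was 136 kb. The members that were themselves the nearest protein-coding gene of a region were Il1rn, Il1b, Irak2, Irak4 and Tollip, or 5 of 9, against 16.9% of protein-coding genes, and 6 of the 13 regions were nearer to another protein-coding gene.

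**Figure D2:**
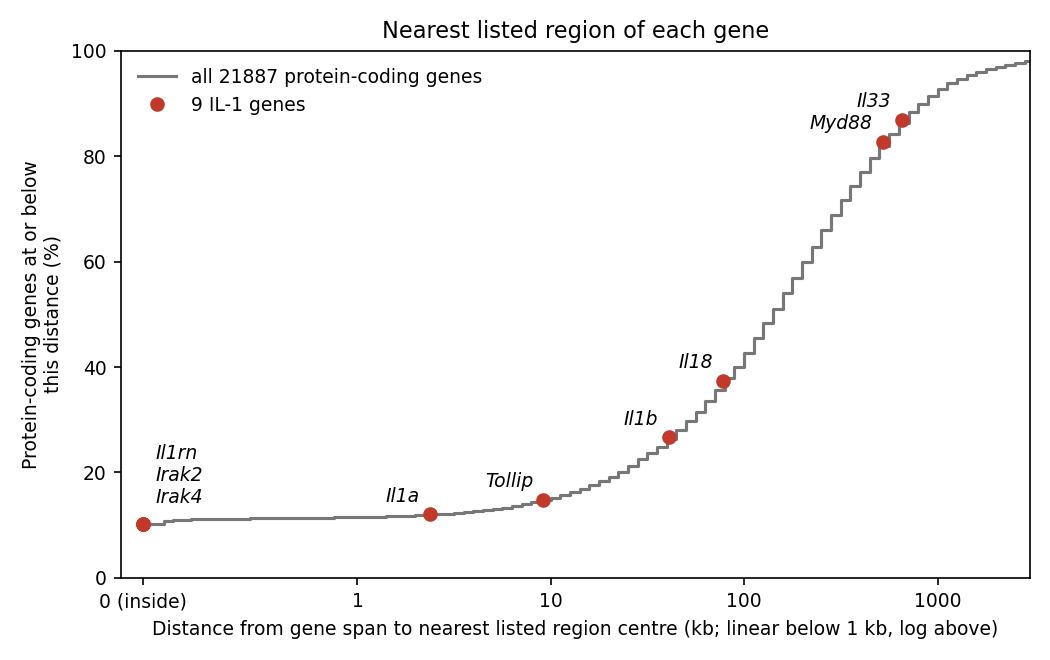
Cumulative share of the 21887 protein-coding genes (grey line, y axis in percent) by distance from the gene span to the centre of its nearest listed region (x axis in kb), with the 9 members as red points. Il1rn, Irak2 and Irak4 sit at 0, Il1a and Tollip under 10 kb, and Myd88 and Il33 at 524 and 654 kb, beyond most genes.

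Regions of either width occurred among the members. Of the 13 regions, 9 were 143 bases wide (69.2%) and 4 were 451 bases wide, while in the whole list 49.4% had the narrower width. Il1rn, Il18, Irak2 and Tollip had 143-base regions only, Il1a and Il1b had 451-base regions only, and Irak4 had 1 of the former and 2 of the latter. At least 1 region of 143 bases was present at 5 members (55.6%, against 29.0% of protein-coding genes), and at least 1 of 451 bases at 3 (33.3%, against 19.7%). What the widths stand for is not given in the sources used here, and regions of a locus are not independent.

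The promoter windows of the cytokine and antagonist genes differed in base composition from those of the signalling genes. The 8 windows of Il1rn, Il1a, Il1b, Il18 and Il33 held 1 to 6 CpG dinucleotides. Of these, the Il1rn windows 24345041 to 24345340 and 24345121 to 24345420 share bases, so the 8 are not separate sequences. The 4 windows of Myd88, Irak2, Irak4 and Tollip held 13 to 23, so the counts did not overlap. The median over 21263 windows of protein-coding genes was 13, the count of Myd88. Fewer than 6 CpG were held by 32.3% of all windows, and fewer than 13 by 49.1%. GC content was 36.7 to 54.0% in the cytokine and antagonist windows and 54.0 to 62.3% in the signalling windows. Its median over all windows was 56.3%. These differences were not tested. The windows with a listed region stood on either side of this divide. That of the first Il1rn start held 1 CpG, as did that of Il18 (11.4% of all windows held 1 or none), and that of Irak4 held 16.

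**Figure D3:**
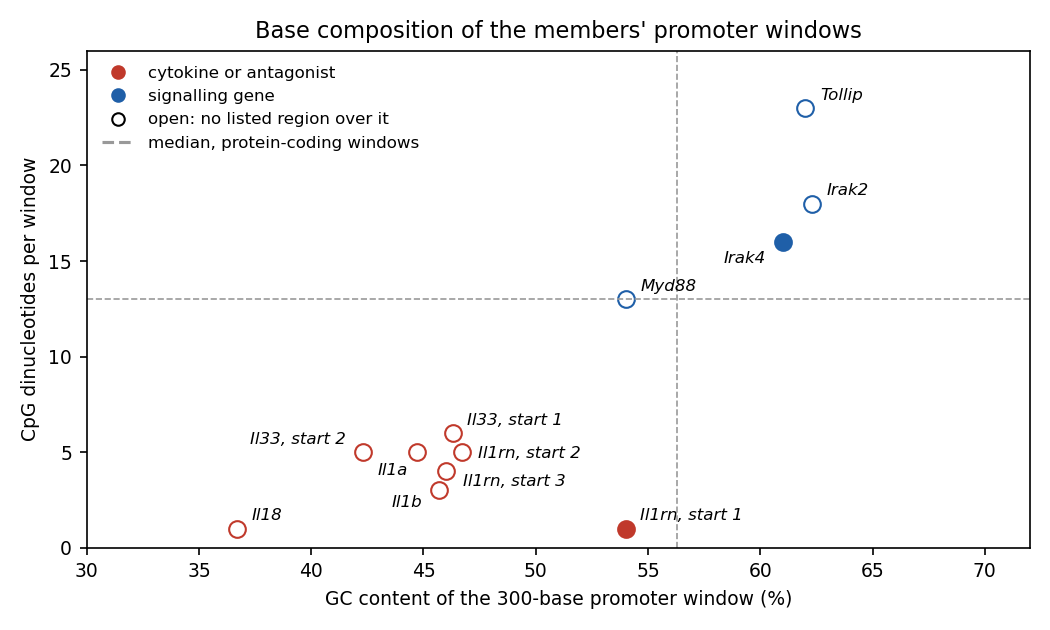
CpG dinucleotides per 300-base promoter window (y axis) against its GC content in percent (x axis) for the 12 windows of the 9 genes, with filled points where a listed region lies over the window and dashed lines at the medians of all protein-coding windows. The first Il1rn start is filled at 1 CpG and Irak4 is filled at 16, and the other 10 points are open.

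Short motifs of factors active downstream of IL-1 or in prostate cells were searched on both strands of these windows. They were NF-kB (GGG and CC with any 5 bases between), AP-1 (TGANTCA), CRE (TGACGTCA), the androgen receptor half-site (AGAACA), ETS (GGAAGT), C/EBP (TTGCNNAA), IRF (GAAA repeated with any 2 bases between), the TATA box (TATAAA) and SP/KLF (GGGCGG). The capital stretch of Il1rn held an AP-1 match, TGAGTCA, at positions -141 to -135, a motif found in 6.99% of all protein-coding promoter windows and in 3.78% of the same 143-base stretch of them. It also held an NF-kB match, GGGAGTGGCC, at positions -54 to -45. That loose pattern occurs in 57.0% of windows and in 38.8% of such stretches. A further NF-kB match in the same Il1rn window, at positions -4 to 6, lay outside the region. No match to the other 7 motifs lay in the Il1rn stretch. The Irak4 window held an NF-kB match, read on the minus strand, whose bases overlap an SP/KLF match, and that motif occurs in 46.2% of windows.

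Starts without a listed region held matches as well. NF-kB matches lay in the windows of Irak2 (positions 12 to 21) and Tollip (-40 to -31). They also lay in the windows of the Il1rn starts at 24345291 (30 to 39) and 24345371 (-51 to -42), which share bases. SP/KLF matches lay in the windows of Myd88, Irak2 and Tollip, and ETS matches in those of Il1b, Myd88 and Irak2. Il1a and Il1b each had a TATA box, beginning at position -32 and -31, a motif found in 12.6% of windows. TATA box matches also lay in the windows of Il18 and Myd88, both Il33 windows and that of the third Il1rn start. Most of these lay elsewhere in the window. They were at -175 to -170 in Il18, -164 to -159 and -160 to -155 in Myd88, and -203 to -198 at the first Il33 start. That of the third Il1rn start lay past the start, at positions 15 to 20. The match at the second Il33 start began at position -29. Il1a had an AP-1 match as well, at positions -12 to -6. Myd88 held an IRF match (3.35% of windows). Among the members, androgen receptor half-sites were found in the windows of Il18 and Tollip (16.2% of windows), neither of which a listed region touched. The window of the neighbour Ckap2l was searched too. It held a half-site at positions 26 to 31, inside the listed region, and NF-kB, ETS and SP/KLF matches there as well. A match is a string of letters in a window and not a measured binding site, and the regions inside Irak2 and those far from a start were not searched.

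**Figure D4:**
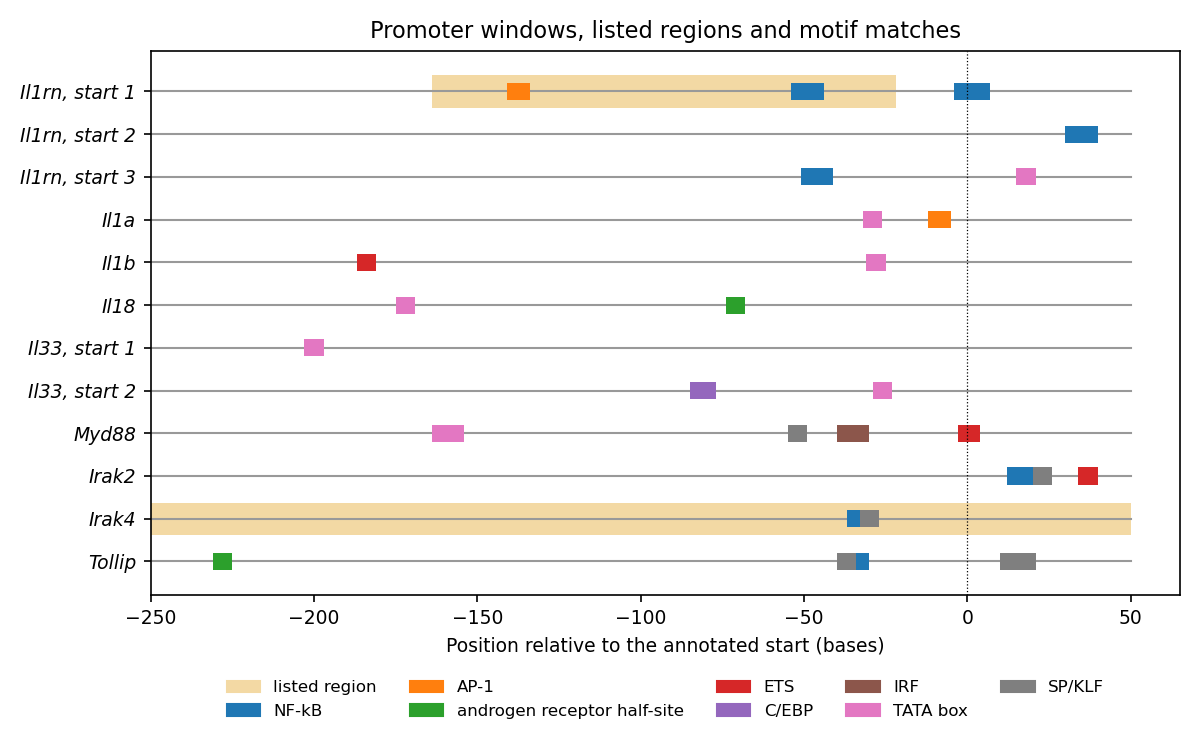
Promoter windows of the 9 genes (rows, Il1rn and Il33 with several starts), with position relative to the annotated start in bases on the x axis, listed regions as shaded boxes and motif matches as coloured blocks. Shading covers part of the first Il1rn window and all of the Irak4 window, and coloured blocks occur in shaded and unshaded windows alike.

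A list of 33 further genes of the pathway was examined, of which 32 matched the RefSeq table, Il36rn being the exception. Of the 32, 15 had a region within 100 kb (46.9%, against 42.7% of all protein-coding genes). With 143-base regions alone there were 14 (43.8%, against 29.0%) and with 451-base regions alone 7 (21.9%, against 19.7%). A region lay inside the span of 6 (18.8%, against 10.2%). These shares were not tested. By role, regions were found at 7 of 8 receptor genes and 6 of 14 signalling genes. They were also found at 1 of 5 genes that process the cytokines and 1 of 5 cytokine or binding-protein genes. The receptor gene without one was Il1r1, the gene of the IL-1 receptor, named after its distance was seen. Its nearest region was 101 kb away. The receptor genes include neighbours on chromosome 1 that share regions, so they do not count as separate loci. Regions already placed at a member were not left out of these counts. The cytokine gene with regions was Il1f10, also named afterwards, with 3 regions, the nearest at 42.6 kb. These were not told apart from the 3 regions of Il1rn.

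Within 10 kb, 8 of the 32 had a region (25.0%, against 15.2% of protein-coding genes). Of these, 5 were receptor genes, each with a region inside the gene: Il1r2, the decoy receptor of IL-1, Il1rap, the shared accessory chain, Il1rl1, the IL-33 receptor, and the IL-18 receptor genes Il18r1 and Il18rap. The others act downstream of the IRAK kinases. Ube2n, which encodes the conjugating enzyme for lysine-63 ubiquitin chains, had a 451-base region on chromosome 10 (95514873 to 95515323) centred 64 bases before its start. A 143-base region lay inside Ikbkb, the gene of an IkB kinase, and another 1.88 kb outside the span of Map3k7, the gene of the kinase TAK1. The nearest region was over 500 kb away for 5 of the 32 (15.6%, against 18.1% of protein-coding genes), namely Casp1, Casp4, Gsdmd, Irak1 and Ikbkg, named after their distances were seen.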

How the data were processed

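The deposited list holds region coordinates on mm10. Tools named in the submitters' processing notes include edgeR, HOMER 4.8, SAMtools and BWA 0.7.17-r1188. Their order and thresholds, and whether libraries were pooled, are not given in the sources used here. A filter before deposit fixes which regions can appear, and regions just short of it are not seen. The list had no column of values per library, so no depth or replicate error is given.

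Deposited starts, counted from 0, were shifted to count from 1. Regions were placed by their centre, and the nearest gene was the one at the smallest distance from its span, the shortest where several enclosed the centre. Spans came from a RefSeq gene table and starts, strands and sequences from a RefSeq promoter table, both of GRCm38.p6. All 9 members matched, and 17492 of 21887 protein-coding genes had a promoter window. Position 1 is the start base. Python 3.11.15, pandas 2.3.3 and numpy 2.4.6 were used, and the counting code was checked against a plain search on simulated positions.

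The members, the pathway list, the motifs and the rule for names (all members, pathway genes with a region within 10 kb, and the nearest protein-coding gene of a member's region) were chosen with earlier results of these data known.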

Additional observations from a re-analysis of the deposited data

How the results depend on the processing

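The count of 7 members with a region stayed within 1.5 times under distances of 10, 50 and 250 kb (5, 6 and 7 members, against 15.2, 29.7 and 65.8% of protein-coding genes), any overlap in place of the centre, merging of regions within 1 kb, distance from gene starts, and 143-base regions alone. With 451-base regions alone it was 3. The 13 regions became 8 within 10 kb and 4 with 451-base regions alone. The 15 pathway genes became 8 within 10 kb, 26 within 250 kb and 7 with 451-base regions alone. The 5 members that were a region's nearest protein-coding gene became 2 with 451-base and 3 with 143-base regions alone. Fewer regions enter under a single width or a shorter distance. Each of these counts stayed within 1.5 times in its other alternatives.

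No paired analysis was possible because the only values are coordinates shared by all libraries. Alternatives that leave out a library were not run for that reason. The sequences bear on promoter windows only. Direction of change, exons and the depth behind a region were not analysed here.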
